A study of Mus musculus with 18 samples.

Results

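Light polysome RNA is the messenger RNA that sediments with fewer than 3 ribosomes when a cell lysate is spun through a sucrose gradient. The comparison described here is that of Light RNA from Prmt1 knockout cells with Light RNA from control cells, 3 libraries on each side. These are 6 of the 18 libraries of the series, chosen by their labels alone, and all 17515 genes with enough reads were tested. The cells are mouse osteosarcoma cells, labelled mOS, derived from tumours of p53 and Rb conditional knockout mice of mixed strain background, with an age label of postnatal day 299. They carry floxed Prmt1 alleles (Prmt1 f/f) and a stably expressed CreER, a Cre recombinase that is active only in the presence of tamoxifen. Knockout cells were given 4-hydroxytamoxifen (4OHT) and carry the genotype label Prmt1-/-. Control cells were given the ethanol vehicle and are labelled wild type, although they are Prmt1 f/f CreER cells too. Both groups therefore share the tumour origin, the floxed alleles and CreER, and 4OHT and the loss of Prmt1 cannot be told apart in these 6 libraries. The other 12 libraries are Total cytoplasmic RNA and Heavy polysome RNA (more than 3 ribosomes) of the same groups, again 3 each, and a fixed volume of each lysate gave the Total RNA while the rest was loaded on the gradient, per the labels' protocols.

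Ribosomes that translate a message add to its mass, so a gradient sorts messages by how many ribosomes they carry. Long coding regions hold more ribosomes than short ones at the same spacing, and a message in the Light pool either has a short coding region or carries few ribosomes for its length. Prmt1 is the main enzyme that places asymmetric dimethyl groups on arginines of proteins, many of them RNA-binding proteins with arginine and glycine repeats. The levels given here are counts per 1000000 reads (CPM), a share of a library, so a rise in Light CPM can come with more of the message in the cell, with more of it in the Light pool, or with less of other messages. In RNA from a whole culture, fewer cells of a kind and less RNA per cell cannot be told apart.

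In units of 1000000 reads, the Light libraries held 50.8, 35.9 and 50.7 in knockout cells, against 57.9, 48.9 and 38.7 in control cells, and all libraries of the series held 32.3 to 57.9. Knockout Light library 1 stood apart from its group. Its log2 values correlated at 0.979 and 0.976 with the other 2 knockout libraries, which correlated at 0.994 with each other, and control pairs correlated at 0.992 to 0.994. Whether the replicates are separate cultures is not labelled, and the p-values below measure only the spread between these libraries.

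Prmt1 itself did not pass the test in Light RNA. It had 166, 229 and 235 CPM in knockout Light RNA, against 255, 243 and 218 CPM in control Light RNA. The groups overlapped, with knockout library 1 lowest of all 6. The log2 change was -0.20 (SE 0.21, adjusted p = 0.506, limma). In the same fit the log2 change of Prmt1 was -0.72 in Total RNA and -1.88 in Heavy RNA, and both passed the test. Reads were counted over the whole gene, and the sources used here do not name the exons that lie between the loxP sites. Of the 12 arginine methyltransferases and cofactors tested, Prmt7 fell and Btg2, a cofactor that binds Prmt1, rose. Prmt7, which places monomethyl groups, had 109.6, 122 and 119 CPM in knockout Light RNA, against 176, 163 and 161 CPM in control Light RNA, a log2 change of -0.51 (adjusted p = 0.000702). Prmt5, the main symmetric dimethylating enzyme, had 124 ± 24.1 CPM in knockout Light RNA and 107 ± 5.89 CPM in control Light RNA (mean ± SD, n = 3 each, as in all such pairs below) and did not pass the test. Carm1, an asymmetric dimethylating enzyme, averaged 256 ± 12.8 CPM in knockout Light RNA and 232 ± 17 CPM in control Light RNA and did not pass it either.

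Across the Light libraries 6926 of 17515 tested genes differed at an adjusted p below 0.05, which is 39.5% of them. The knockout was higher for 4702 genes (26.8%) and lower for 2224 genes (12.7%). Changes are given as log2 differences of CPM + 1, a scale that understates the change of genes with low CPM. By this scale 1033 called genes (5.9% of all tested) were at least 2-fold higher and 289 (1.65%) at least 2-fold lower. The split of directions depended on the scaling. Among genes of at least 1 CPM the median log2 change was 0.14 with library totals as the scale, and quantile normalization gave 3064 higher and 3415 lower genes in place of 4702 and 2224. Median-of-ratios scaling gave 3197 higher and 3716 lower. Without knockout library 1 there were 4010 higher and 1632 lower genes. Calls of changes well above 0.14 were also lost under those scalings. Light calls of named genes that were lost under those scalings or without a single library are given beside them. Losses in other settings are given at the end, and Eef1g, Bglap and Bglap2 were not followed. Of 9469 genes that averaged 5 CPM or more, 3135 (33.1%) were called higher and 1704 lower, and a list with shares near these does not stand apart from them. Of these genes 3747 (39.6%) had all 3 knockout libraries above all 3 control libraries and 2340 (24.7%) had them all below. In that group the median log2 change was 0.13, against 0.05 over all tested genes.

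Of the genes with the highest changes, 5 that encode secreted or surface proteins are given here. Complement component C3 had 37.6, 15.2 and 19.8 CPM in knockout Light RNA, against 0.293, 0.0204 and 0.129 CPM in control Light RNA. All 3 controls were below 1 CPM and knockout library 1 was the highest. Its log2 change of 4.36 (SE 0.39, adjusted p = 4.91e-07) was the highest among called genes above 5 CPM on average. Integrin subunit Itgb7 had 41.1, 57.1 and 50.9 CPM in knockout Light RNA, against 5.66, 3.15 and 4.53 CPM in control Light RNA. The groups were far apart, and library 1 was not the highest here (log2 change 3.23, SE 0.21, adjusted p = 1.59e-08). Gpnmb, a transmembrane glycoprotein of lysosomes and the cell surface, had 18.5, 13.3 and 9.82 CPM in knockout Light RNA, against 0.259, 0.531 and 0.388 CPM in control Light RNA (log2 change 3.38, SE 0.26, adjusted p = 8.8e-08). Ly6a, which encodes the surface protein Sca-1, had 199, 93.5 and 84.5 CPM in knockout Light RNA, against 10.4, 13.2 and 11.2 CPM in control Light RNA. Knockout library 1 exceeded the other knockout libraries for Ly6a, and all 3 stood above the controls (log2 change 3.22). Ecm1, a secreted matrix protein, had 436, 524 and 533 CPM in knockout Light RNA, against 60.8, 54.3 and 53 CPM in control Light RNA (log2 change 3.13, SE 0.14, adjusted p = 8.96e-10).

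Genes with the lowest changes encoded proteins of several kinds, and Galnt11, with a log2 change of -2.95, is described with the Heavy fraction at the end. Fabp5, a carrier of fatty acids in the cytoplasm, had 163, 182 and 162 CPM in knockout Light RNA, against 918, 817 and 895 CPM in control Light RNA. Every knockout library was far below every control, and both groups were tight (log2 change -2.37, SE 0.18, adjusted p = 1.03e-07). Igfbp7, a secreted protein that binds insulin-like growth factors, had 19.4, 18 and 15.9 CPM in knockout Light RNA, against 110, 114 and 113 CPM in control Light RNA (log2 change -2.60). The gene overlaps Polr2b, so reads of the pair may be mixed. The prolactin family genes Prl2c2, Prl2c3 and Prl2c4 had log2 changes of -3.13, -3.11 and -3.11. Their values in each library were nearly identical for Prl2c3 and Prl2c4, as for copies that share reads, so the family is best read as a single signal. Dap, a small cytoplasmic protein linked to autophagy, had 101, 205 and 170.2 CPM in knockout Light RNA, against 700.4, 815 and 679 CPM in control Light RNA, a log2 change of -2.25 (SE 0.26, adjusted p = 4.88e-06). Plac8 and the vasopressin receptor gene Avpr1a fell as well, with log2 changes of -2.13 and -2.27. Cxcl12, the chemokine that binds Cxcr4, took 1259.6, 1864 and 1675 CPM in knockout Light RNA, against 3238, 3778 and 3379 CPM in control Light RNA. It was among the 10 genes with the most reads in control Light RNA, and its groups did not overlap (log2 change -1.13, SE 0.17, adjusted p = 9.22e-05).

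**Figure D1:**
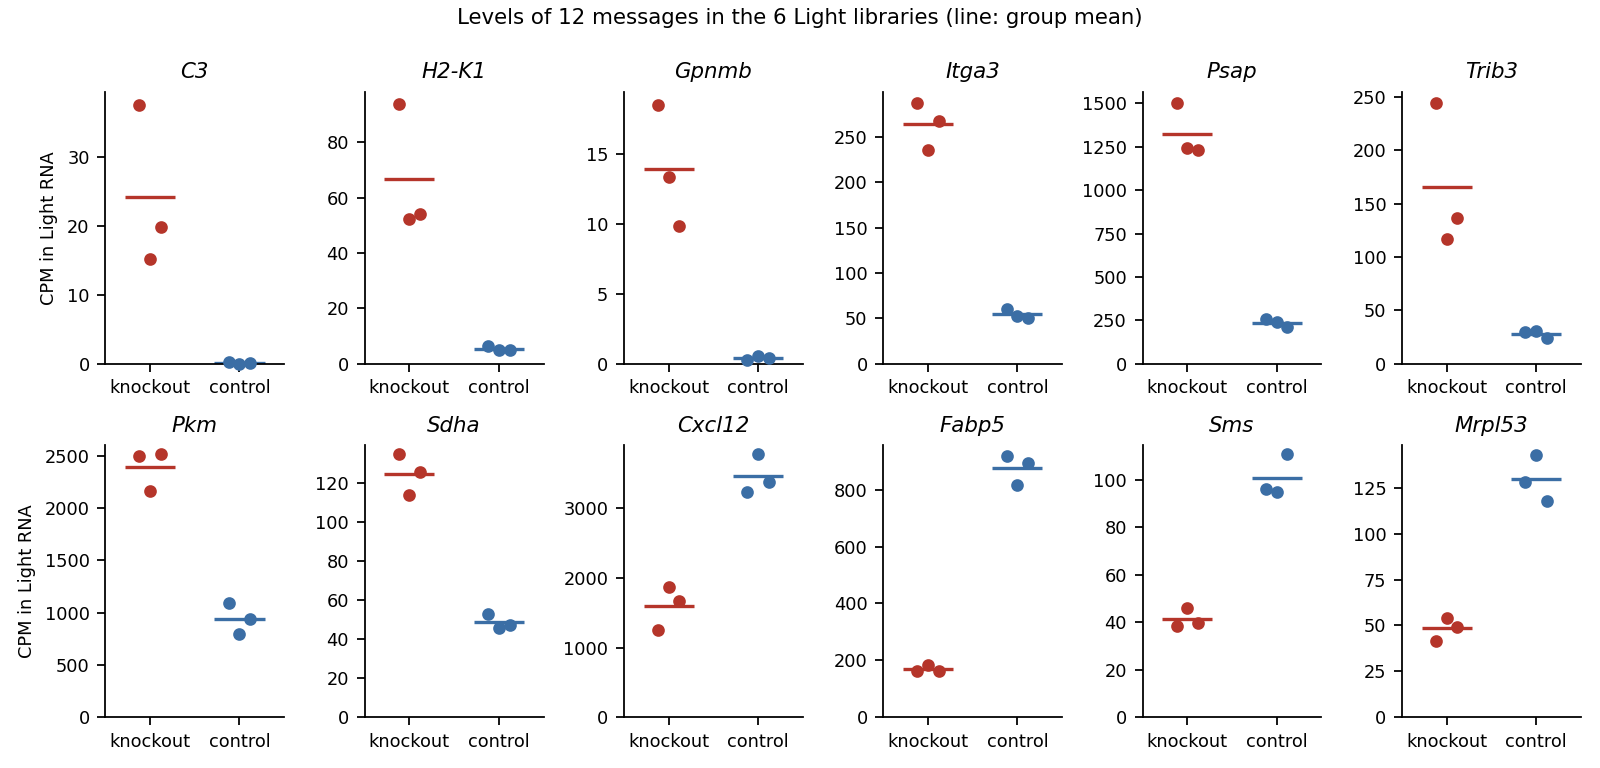
Each panel plots the CPM of 1 gene in the 6 Light libraries, knockout at left and control at right, with a line at the group mean and an axis that starts at 0. Knockout libraries lie above the controls for C3, H2-K1, Gpnmb, Itga3, Psap, Trib3, Pkm and Sdha, and below them for Cxcl12, Fabp5, Sms and Mrpl53.

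Antigen presentation stood highest among the gene lists. MHC class I molecules carry peptides to the cell surface, the proteasome cuts these peptides, and the Tap transporter brings them into the endoplasmic reticulum (ER). Of 20 tested members 18 rose and none fell, with a median log2 change of 1.48. The class I heavy chain H2-D1 had 300.2, 224 and 235 CPM in knockout Light RNA, against 54.6, 51.1 and 50.4 CPM in control Light RNA, a log2 change of 2.25 (SE 0.13, adjusted p = 3.59e-09). The groups lay far apart, and H2-K1 and H2-T23 followed the same direction with log2 changes of 3.39 and 2.34. The heavy chain genes are similar in sequence, so reads may be shared among them. Tapbp, which bridges class I molecules and Tap, had 612, 353 and 455 CPM in knockout Light RNA, against 89, 81.8 and 78.7 CPM in control Light RNA (log2 change 2.46, adjusted p = 4.85e-07). The 2 members that did not pass the test were the light chain B2m and the immunoproteasome subunit Psmb10. B2m had 539, 483 and 391 CPM in knockout Light RNA, against 359.5, 368 and 439 CPM in control Light RNA, so its groups overlapped (log2 change 0.27, adjusted p = 0.213). In Total RNA the log2 change of B2m was 0.77, past the threshold. The counts of the list were 16 higher and none lower in Total RNA, where 26.4% of all genes were called, 16.1% higher and 10.3% lower. They were 17 higher and none lower in Heavy RNA, where 28.9% were called, 18.5% higher and 10.4% lower.

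Of 49 interferon-induced effectors and sensors 35 rose and 1 fell, with a median log2 change of 0.84. Gbp2, an interferon-induced GTPase, had 16.6, 8.3 and 15.1 CPM in knockout Light RNA, against 0.276, 0.245 and 0.362 CPM in control Light RNA (log2 change 3.42, SE 0.30, adjusted p = 4.13e-07). Controls were all below 1 CPM. Xaf1, an interferon-induced protein that binds the apoptosis inhibitor Xiap, had 50, 25.2 and 33.4 CPM in knockout Light RNA, against 2.95, 2.62 and 2.74 CPM in control Light RNA (log2 change 3.25). Tmem173, the adaptor known as STING, averaged 41.1 ± 5.09 CPM in knockout Light RNA and 13.4 ± 0.854 CPM in control Light RNA (SD, n = 3 each), a log2 change of 1.54. Leaving out knockout library 1, which was highest for Gbp2 and Xaf1, left 26 higher and 1 lower.

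Promoter windows of these genes, 250 bases before to 50 bases after the RefSeq start on build GRCm38.p6, were searched on both strands for the core of the interferon-stimulated response element, a pair of GAAA runs with any 2 bases between them. It stood in 19 of the 38 interferon list members with a window (50.0%) and in 5 of the 17 antigen presentation members with one (29.4%), against 3.99% of all genes with a window. Among the interferon members it was in 13 of the 27 that rose (48.1%) and in 5 of the 10 that were not called (50.0%), so its presence did not separate them. A match describes the letters of the window and is not a measured site. The windows of 4 members are shown as examples, with the matched bases in capitals, read along the gene's strand (a match on the other strand appears as a pair of TTTC runs). They are chr3:142620594-142620623 (plus strand) for Gbp2, chr17:36032806-36032835 (minus) for H2-T23, chr11:58199512-58199541 (plus) for Igtp and chr2:122147538-122147567 (plus) for B2m, the member that was not called.
Gbp2: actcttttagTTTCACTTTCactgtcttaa
H2-T23: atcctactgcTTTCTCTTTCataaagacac
Igtp: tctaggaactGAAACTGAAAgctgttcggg
B2m: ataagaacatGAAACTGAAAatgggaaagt
Igtp, an immunity-related GTPase gene that overlaps Irgm2, had 5.65, 2.98 and 4.18 CPM in knockout Light RNA, against 0.069, 0.0818 and 0.0259 CPM in control Light RNA (log2 change 2.28).

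Most listed genes of amino acid supply rose. Atf4 is the transcription factor that cells use when amino acids run short, and its targets make, import and spare amino acids. Of 35 listed targets and partners 23 rose and none fell, with a median log2 change of 0.76, and 12 were not called. Trib3, a pseudokinase that Atf4 induces, had 244, 117 and 137 CPM in knockout Light RNA, against 29.8, 30.5 and 24.5 CPM in control Light RNA. Library 1 was highest, and the other knockout libraries were still far above every control (log2 change 2.45, SE 0.26, adjusted p = 2.48e-06). Atf3, a partner factor, had 22.8, 23.6 and 19 CPM in knockout Light RNA, against 6.44, 6.77 and 5.51 CPM in control Light RNA (log2 change 1.66, adjusted p = 3.92e-08). Slc3a2, the shared heavy chain of several amino acid transporters, averaged 422 ± 26.8 CPM in knockout Light RNA and 210.3 ± 13.2 CPM in control Light RNA (log2 change 1.00). Asns, asparagine synthetase, had 211, 146 and 153 CPM in knockout Light RNA, against 120.5, 108 and 119.7 CPM in control Light RNA. Its groups did not overlap, but its log2 change of 0.53 (adjusted p = 0.0387) was past the threshold in 10 of 17 alternative settings and missed it without knockout library 1, without any single control library and under both other scalings.

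The cytosolic aminoacyl-tRNA synthetases, which load amino acids onto transfer RNAs, rose in 18 of 23 cases and fell in 1, with a median log2 change of 0.77. Qars, the glutamine enzyme, had 84.2, 83.9 and 93.8 CPM in knockout Light RNA, against 42.1, 34.9 and 35.9 CPM in control Light RNA (log2 change 1.20, SE 0.13, adjusted p = 4.3e-06). Lars, the leucine enzyme, averaged 66 ± 6.25 CPM in knockout Light RNA and 30 ± 1.09 CPM in control Light RNA (log2 change 1.11). Aars, the alanine enzyme, averaged 416 ± 23.2 CPM in knockout Light RNA and 144 ± 20.3 CPM in control Light RNA (log2 change 1.53), with reads that may include the overlapping gene Exosc6. The member that fell was Eef1e1, a small scaffold protein of the synthetase complex, which averaged 96.9 ± 15.3 CPM in knockout Light RNA and 169.8 ± 14.9 CPM in control Light RNA (log2 change -0.81, adjusted p = 0.00447). In Total RNA 2 members of this list were higher and 3 lower, with a median log2 change of -0.02. The list had 9 members higher and 3 lower in Heavy RNA, with a median of 0.16.

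The same windows were searched for TGATGNAAN, a sequence bound by Atf4 with its partners. It stood in 11 of the 31 listed Atf4 targets and partners with a window (35.5%) and in 5 of the 15 synthetases with one (33.3%), against 4.50% of all genes with a window. It was in 6 of the 20 Atf4 list members that rose and in 5 of the 11 that were not called. The windows of 3 of the Atf4 list members that rose are shown, with the match in capitals (all 3 matches lie on the opposite strand and appear as the reverse complement). They are chr2:152344028-152344057 (minus) for Trib3, chr1:191183425-191183454 (minus) for Atf3 and chr2:119351038-119351067 (plus) for Chac1.
Trib3: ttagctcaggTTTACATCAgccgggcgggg
Atf3: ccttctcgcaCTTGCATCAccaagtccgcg
Chac1: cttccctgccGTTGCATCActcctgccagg
Chac1, an enzyme that breaks down glutathione, averaged 100.1 ± 34.1 CPM in knockout Light RNA and 30.8 ± 3.11 CPM in control Light RNA (log2 change 1.62).

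Lysosomal genes rose broadly. Lysosomes break down proteins, lipids and sugars with acid hydrolases. Of 36 tested members 29 rose and 1 fell, with a median log2 change of 1.14, and their summed level was 11149, 9611 and 8898 CPM in knockout Light RNA, against 3716, 3622 and 3516 CPM in control Light RNA. Psap, the precursor of the saposins that help degrade sphingolipids, had 1503, 1245 and 1229.8 CPM in knockout Light RNA, against 259, 238 and 209.5 CPM in control Light RNA (log2 change 2.49, SE 0.15, adjusted p = 1.2e-08). The aspartic protease Ctsd had 915, 649 and 617 CPM in knockout Light RNA, against 137, 121 and 113 CPM in control Light RNA (log2 change 2.53, SE 0.16, adjusted p = 1.69e-08). Both genes had every knockout library far above every control. The cysteine protease Ctsl and alpha-galactosidase Gla had log2 changes of 1.88 and 1.97. Glb1, beta-galactosidase, was the exception, at 8.58 ± 1.65 CPM in knockout Light RNA and 17.7 ± 1.47 CPM in control Light RNA (log2 change -0.98), and it overlaps Tmppe. The list had 25 members higher and 2 lower in Total RNA, with a median log2 change of 0.82.

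Most glycolysis genes were higher, and the iron and lipid synthesis counts were less firm. Of 21 glycolysis genes 18 rose and none fell, with a median log2 change of 0.87, while 5 rose and 1 fell in Total RNA, with a median of 0.18. Rises numbered 9 in Heavy RNA, with no falls and a median of 0.36. Pkm, pyruvate kinase, had 2499.8, 2159 and 2514 CPM in knockout Light RNA, against 1097, 792 and 940 CPM in control Light RNA (log2 change 1.35, SE 0.18, adjusted p = 2.1e-05). The phosphofructokinase gene Pfkl and the glucose transporter gene Slc2a1 had log2 changes of 1.75 and 1.49. Of 12 genes with iron-responsive elements or close iron roles 10 rose and none fell, but 6 rose with quantile normalization, 5 with median-of-ratios scaling and 6 without knockout library 3. Hmox1, which frees iron from heme, had 1135, 1078 and 1339 CPM in knockout Light RNA, against 508, 279 and 453 CPM in control Light RNA (log2 change 1.56, adjusted p = 2.92e-05). Tfrc, the transferrin receptor, averaged 102 ± 4.02 CPM in knockout Light RNA and 46.2 ± 6.95 CPM in control Light RNA (log2 change 1.13). Ferritin subunit Fth1 had 673, 1002 and 1324 CPM in knockout Light RNA, against 611, 625 and 637 CPM in control Light RNA. The controls were tight and the knockout libraries spread (log2 change 0.62, adjusted p = 0.0187), and the call was lost without knockout library 2 or 3, without control library 1 and with median-of-ratios scaling. Of 30 sterol and fatty acid synthesis genes 15 rose, 1 fell and 14 were not called, and 10 rose without knockout library 1. Among them was Acly, which makes cytosolic acetyl-CoA, with a log2 change of 1.30.

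Among messages for the cell surface and matrix, rises outnumbered falls, by less once coding length was taken into account. Of 26 integrins and linked proteins 16 rose and 1 fell, with a median log2 change of 0.54. The median coding length of this list is 3162 nucleotides, and with the trend of the Light change along coding length removed (described below) 7 rose and 7 fell, with a median of 0.14. That step subtracted the trend from every gene, also from those near 0 CPM, where it can create falls among long messages. In this list 16 members averaged at least 5 CPM, and the same limit holds for the lists below. Itga3, a laminin-binding integrin subunit, had 288, 236 and 268 CPM in knockout Light RNA, against 59.9, 52.9 and 50 CPM in control Light RNA (log2 change 2.26, SE 0.16, adjusted p = 6.48e-08). Of 28 receptor tyrosine kinases 19 rose and none fell, with a median of 0.47, against 11 rises and 7 falls and a median of 0.09 with the length trend removed. Fgfr1, a fibroblast growth factor receptor, had 502, 535 and 517 CPM in knockout Light RNA, against 193, 177 and 186 CPM in control Light RNA, with tight groups far apart (log2 change 1.48, SE 0.10, adjusted p = 3.33e-08). Pdgfra, a platelet-derived growth factor receptor, and Epha2, an ephrin receptor, had log2 changes of 2.00 and 1.23. Of 22 collagens 13 rose and none fell, or 8 and 2 with the length trend removed, with Col1a1 at 2134 ± 308 CPM in knockout Light RNA and 866 ± 155 CPM in control Light RNA (log2 change 1.31). Of 24 collagen processing enzymes 14 rose and 3 fell. The procollagen protease Bmp1 rose with a log2 change of 1.67, and the lysyl oxidase relatives went opposite ways, Loxl2 with 1.97 and Loxl1 with -1.42. Of 23 COPII and COPI coat proteins, which shape transport vesicles between ER and Golgi, 14 rose and none fell in Light RNA, with a median of 0.56, and 9 rose and 1 fell with median-of-ratios scaling. In Total RNA none of the 23 rose and 1 fell, with a median of 0.04. Heavy RNA had 8 of them higher and 2 lower, with a median of 0.30. Of 31 genes of heparan and chondroitin sulfate synthesis 12 rose (38.7%) and 4 fell (12.9%), and of 20 genes of nucleotide sugar synthesis 5 rose (25.0%) and 4 fell, not far from the shares of all genes of at least 5 CPM. The first list had 10 rises and 10 falls with the length trend removed, and the second had 8 falls. With median-of-ratios scaling there were 7 falls in the first of these lists, and 3 rises and 8 falls in the second.

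**Figure D2:**
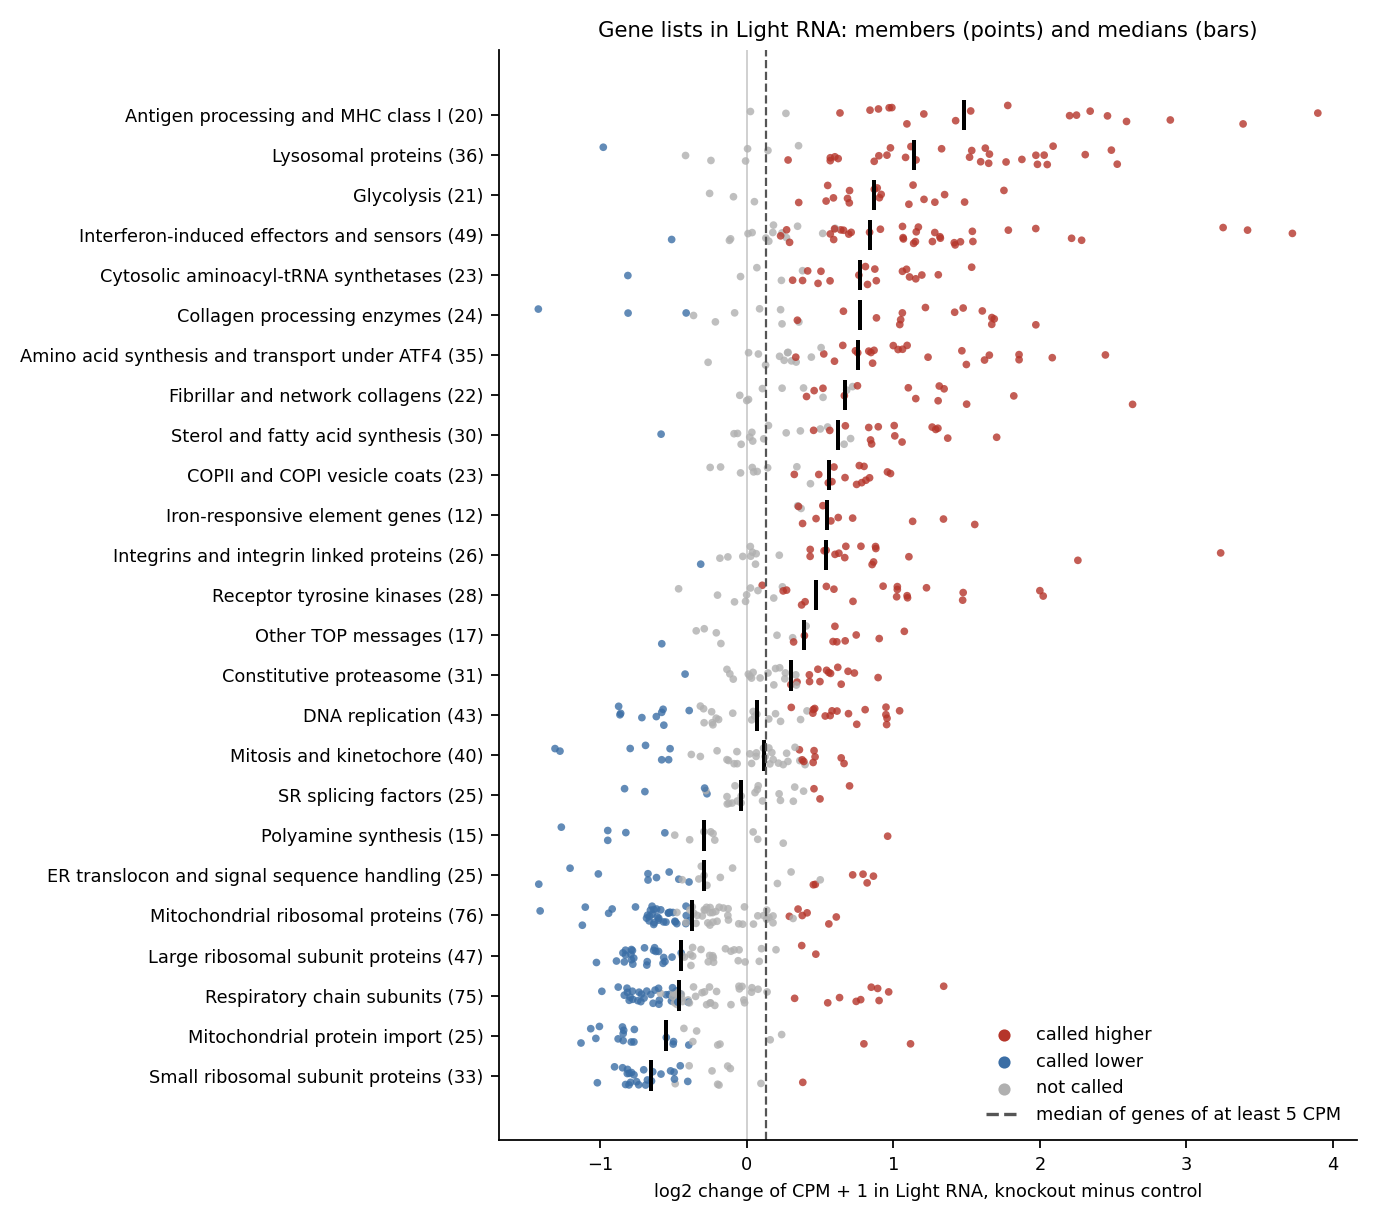
Each row is 1 gene list with its number of tested members, each point a member's log2 change in Light RNA (knockout minus control), coloured by call, and each black bar the list's median. The dashed line marks the median of 0.13 over genes of at least 5 CPM. Antigen presentation (1.48), lysosomal (1.14) and glycolysis (0.87) lists lie to its right, and both ribosomal protein lists and the mitochondrial lists to its left, with a few members of those lists at the opposite side.

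The change in Light RNA was graded by coding length. Genes of at least 5 CPM with coding regions of up to 300 nucleotides had a median log2 change of -0.55, those of 301 to 600 had -0.39, and those of 601 to 1200 had -0.03. The medians were 0.27 for 1201 to 2400 nucleotides, 0.40 for 2401 to 4800 and 0.47 for longer ones. In the shortest class 5.11% of 176 genes rose and 60.2% fell, and in the longest class 52.3% of 352 genes rose and 2.27% fell. The order of the classes was kept with quantile normalization, at -0.61 for the shortest and 0.28 for the longest, and with median-of-ratios scaling, at -0.77 and 0.26. In Total RNA the same classes ran from -0.13 for the shortest to 0.10 for the longest. Heavy RNA had -0.12 for the shortest and 0.59 for the longest. Coding lengths are the longest coding region that the GENCODE annotation gives for each gene, and the transcript used by these cells was not measured.

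The grading was present in each knockout library. The median deviation of genes of 2401 to 4800 nucleotides minus that of genes of 301 to 600 nucleotides was 0.51, 0.22 and 0.48 in knockout Light libraries, against -0.41, -0.38 and -0.40 in control Light libraries (log2, relative to the 6-library mean of each gene). The controls were nearly equal, and all 3 knockout libraries were above them, by 0.81 on average (exact permutation test, two-sided p = 0.1, the smallest that 3 against 3 allows). In Total RNA the values were -0.02, 0.05 and 0.13 in knockout libraries, against -0.04, -0.07 and -0.02 in control libraries, a difference of 0.10 (exact permutation p = 0.1). In Heavy RNA they were 0.89, -0.01 and -0.17 in knockout libraries, against -0.45, -0.19 and -0.10 in control libraries. Those Heavy groups overlapped, and knockout library 1 alone was far above the rest (difference 0.48, exact permutation p = 0.2). When the trend with coding length was removed from every library, 3334 genes were called higher and 4756 lower of 15637 with a coding length. The trend was taken from genes of at least 1 CPM and subtracted from all, so a gene near 0 CPM can be given a change. The cause of the grading was not tested.

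**Figure D3:**
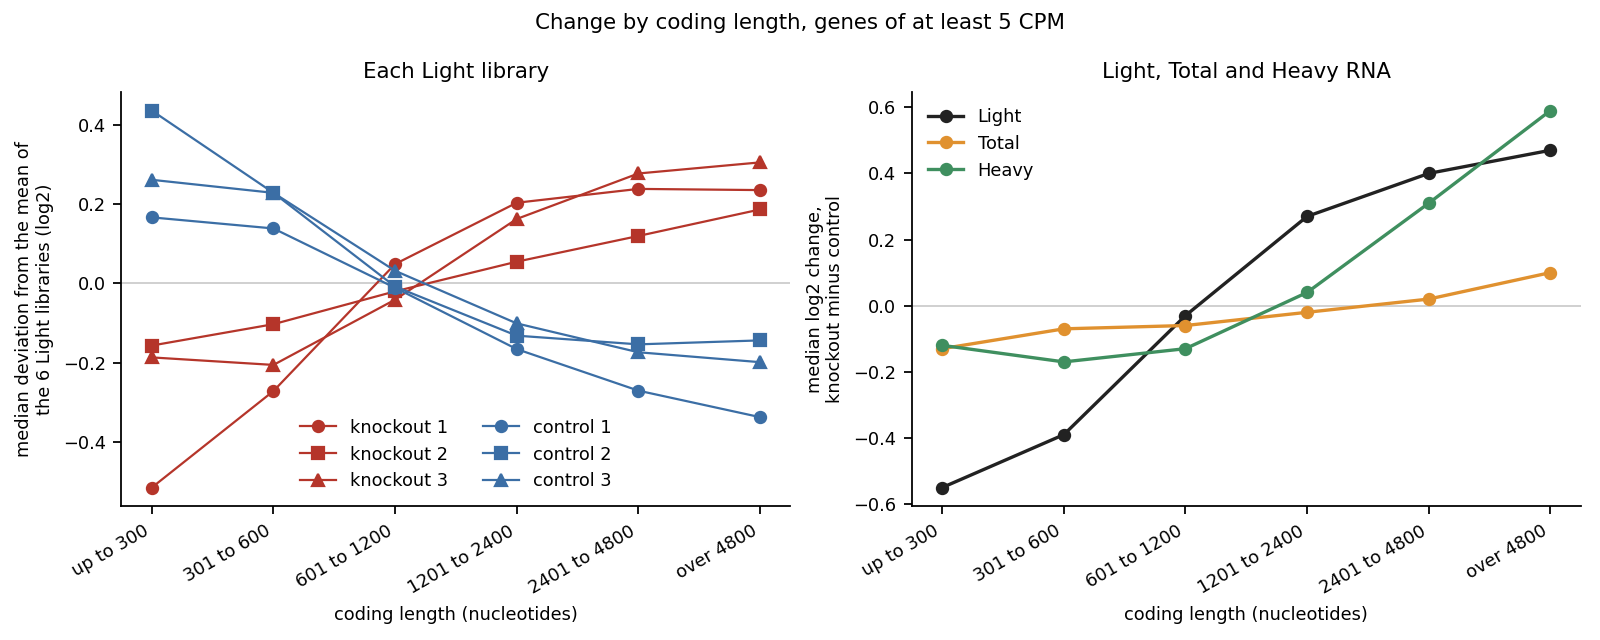
Left, the median log2 deviation of each of the 6 Light libraries from their mean, by class of coding length in nucleotides, with 1 line for each library. Right, the median log2 change (knockout minus control) in Light, Total and Heavy RNA for the same classes. Knockout lines rise and control lines fall with length at left. The opposite slopes follow from centring on the mean of the same 6 libraries, so only the gap between the groups can be read. At right the Light line runs from -0.55 to 0.47, the Total line from -0.13 to 0.10 and the Heavy line from -0.12 to 0.59.

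The subunits of shared complexes parted along the same grade. Of 47 large-subunit ribosomal proteins 24 fell and 2 rose, and of 33 small-subunit proteins 24 fell and 1 rose, with median log2 changes of -0.45 and -0.65. In Total RNA none of either list was called, with medians of -0.08 and -0.10. In Heavy RNA 18 large-subunit and 14 small-subunit proteins fell and none rose, with medians of -0.45 and -0.48. Without knockout library 1 there were 13 large-subunit and 12 small-subunit falls, and without knockout library 3 or any single control library there were 15 large-subunit falls. Median-of-ratios scaling gave 36 and 27 falls, and quantile normalization gave 15 and 16. With the length trend removed there were 14 and 15. Of the 32 large-subunit members of up to 600 nucleotides 24 fell and none rose, of the 13 of 601 to 1000 none was called, and the 2 longer ones, Rpl3 and Rpl4, rose. Rpl36, a short one, had 766, 1046 and 954 CPM in knockout Light RNA, against 1925, 2003 and 1669.6 CPM in control Light RNA (log2 change -1.02, SE 0.21, adjusted p = 0.001). Rpl3, which lies near the peptidyl transferase centre, had 1212, 1034 and 1139 CPM in knockout Light RNA, against 846, 777 and 814 CPM in control Light RNA, with no overlap in the other direction. Its log2 change was 0.47 (SE 0.11, adjusted p = 0.00243), with 0.57 under quantile normalization and 0.25 under median-of-ratios scaling, where no large-subunit member was called higher. Rpl4 and the small-subunit protein Rpsa both had a log2 change of 0.38, with 0.15 and 0.16 under median-of-ratios scaling. The call of Rpl4 was also lost without knockout library 1 or control library 2, and that of Rpsa without knockout library 3 or control library 3.

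Ribosomal protein and elongation factor messages are known for a terminal oligopyrimidine (TOP) tract, a C followed by pyrimidines at the very start of the RNA. A start with C and at least 4 further pyrimidines at the RefSeq start was present in 7 of 34 large-subunit members with a window (20.6%) and in 7 of 25 small-subunit members, against 3.01% of all genes with a window. RefSeq starts need not be the starts used in these cells. Windows of 5 TOP-type starts that moved in different ways are shown, from 10 bases before the start to 20 bases from it, with the pyrimidine run in capitals. They are chr3:90213629-90213658 (minus) for Rps27, chr11:114668570-114668599 (plus) for Rpl38, chr4:86857348-86857377 (minus) for Rps6, chr14:18270967-18270996 (minus) for Rpl15 and chr7:108934405-108934434 (plus) for Eif3f.
Rps27: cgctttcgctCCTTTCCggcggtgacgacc
Rpl38: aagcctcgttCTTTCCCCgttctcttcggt
Rps6: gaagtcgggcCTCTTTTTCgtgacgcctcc
Rpl15: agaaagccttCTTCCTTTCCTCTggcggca
Eif3f: tctaggctctCTCTCTTTCTCggcaagatg
Rps27 and Rpl38, both with short coding regions, had log2 changes of -0.83 and -0.83. Rps6 and Rpl15 had -0.13 and -0.05 and were not called. Eif3f, a longer subunit of initiation factor 3, had 162, 133 and 137 CPM in knockout Light RNA, against 111, 118 and 115 CPM in control Light RNA (log2 change 0.32, adjusted p = 0.0123). It had 0.10 under median-of-ratios scaling, and its call was lost there and without knockout library 1. Over all genes of at least 5 CPM with such a start, the median log2 change was -0.46 in 36 genes of up to 600 nucleotides, -0.05 in 46 genes of 601 to 1000 and 0.25 in 137 longer genes. Genes without such a start had medians of -0.42, -0.09 and 0.30 in the same classes.

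Of the 5 listed elongation factors known for TOP starts, Eef1a1, Eef1g and Eef2 rose, and Eef1b2 and Eef1d had log2 changes of -0.34 and -0.18 and were not called. Of 17 TOP messages other than ribosomal proteins 9 rose and 1 fell, with a median log2 change of 0.39, and 5 rose and 3 fell with median-of-ratios scaling. Eef2, the translocation factor, had 2011, 2168 and 2497 CPM in knockout Light RNA, against 1228, 959 and 986 CPM in control Light RNA (log2 change 1.08, SE 0.15, adjusted p = 4.32e-05). Eef1a1, which delivers aminoacyl-tRNA, had 3767, 3519.8 and 4112 CPM in knockout Light RNA, against 2486, 2155 and 2515 CPM in control Light RNA (log2 change 0.67). Neither gene had overlapping groups, and in Total RNA their log2 changes were 0.22 and 0.12, neither past the threshold. The Heavy change was 0.73 for Eef2, past the threshold, and 0.05 for Eef1a1, not past it. Of 36 initiation factors 12 rose (33.3%) and 6 fell (16.7%), as among all genes of at least 5 CPM, but 4 rose and 11 fell with median-of-ratios scaling, and 7 rose and 5 fell without knockout library 1.

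Mitochondrial complexes had the same division. Of 75 respiratory chain subunits 31 fell and 10 rose, with a median log2 change of -0.46. With median-of-ratios scaling 50 fell, and with the length trend removed 14 fell and 10 rose, with a median of -0.02. Of the 54 subunits of up to 600 nucleotides 31 fell and none rose, and of the 11 over 1000 nucleotides 10 rose and none fell, with a median of 0.78. Sdha, the flavoprotein of complex II, had 135, 114 and 126 CPM in knockout Light RNA, against 53, 45.7 and 47.2 CPM in control Light RNA (log2 change 1.34, SE 0.16, adjusted p = 8.83e-06). Cox7c, a small subunit of complex IV, had 168, 229.9 and 199 CPM in knockout Light RNA, against 311, 404 and 379 CPM in control Light RNA (log2 change -0.88, SE 0.16, adjusted p = 0.000461). The groups were apart for both genes, in opposite directions. Uqcrc1 of complex III and Atp5b of the ATP synthase had log2 changes of 0.97 and 0.78. Of 76 mitochondrial ribosomal proteins 34 fell and 6 rose, with 54 falls under median-of-ratios scaling and 22 with the length trend removed. Mrpl53, the member with the lowest p, had 41.5, 54.3 and 49.3 CPM in knockout Light RNA, against 128, 143 and 118 CPM in control Light RNA (log2 change -1.41, SE 0.18, adjusted p = 1.53e-05). Of 25 import factors 16 fell and 2 rose, among them the small chaperone Timm8a1 with -1.13 and the larger cytosolic cochaperone Tomm34 with 0.80. Most import falls stayed with the length trend removed, at 14 falls and 2 rises, with a median of -0.33. Falls numbered 20 respiratory, 22 mitochondrial ribosomal and 9 import genes without knockout library 1. Control library 2 left 19 respiratory and 20 mitochondrial ribosomal falls when it was left out, and without knockout library 3 or control library 3 there were 18 or 20 respiratory falls.

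In the ER, the Sec61 channel carries new chains across the membrane, and its subunits moved in opposite directions. The pore subunit Sec61a1 had 622, 594 and 629 CPM in knockout Light RNA, against 401, 379.8 and 338 CPM in control Light RNA (log2 change 0.72, SE 0.11, adjusted p = 7.71e-05). The small subunit Sec61b had 122, 164 and 142 CPM in knockout Light RNA, against 310.3, 370.5 and 306 CPM in control Light RNA (log2 change -1.20, SE 0.19, adjusted p = 9.91e-05). Both moved by more than the spread of their libraries. Of 25 translocon and signal sequence genes 6 rose and 9 fell, and 4 rose and 15 fell with median-of-ratios scaling. The oligosaccharyltransferase adds N-glycans to the same chains. Its catalytic subunit Stt3a averaged 243 ± 13.2 CPM in knockout Light RNA and 118 ± 3.92 CPM in control Light RNA (log2 change 1.04). Its small subunit Ostc averaged 223 ± 9.56 CPM in knockout Light RNA and 478 ± 14.7 CPM in control Light RNA (log2 change -1.10). Of the 25 genes of this list 9 rose and 6 fell, and the median of 0.15 became -0.07 with median-of-ratios scaling. Of 31 ER folding genes 16 rose and 7 fell.

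**Figure D4:**
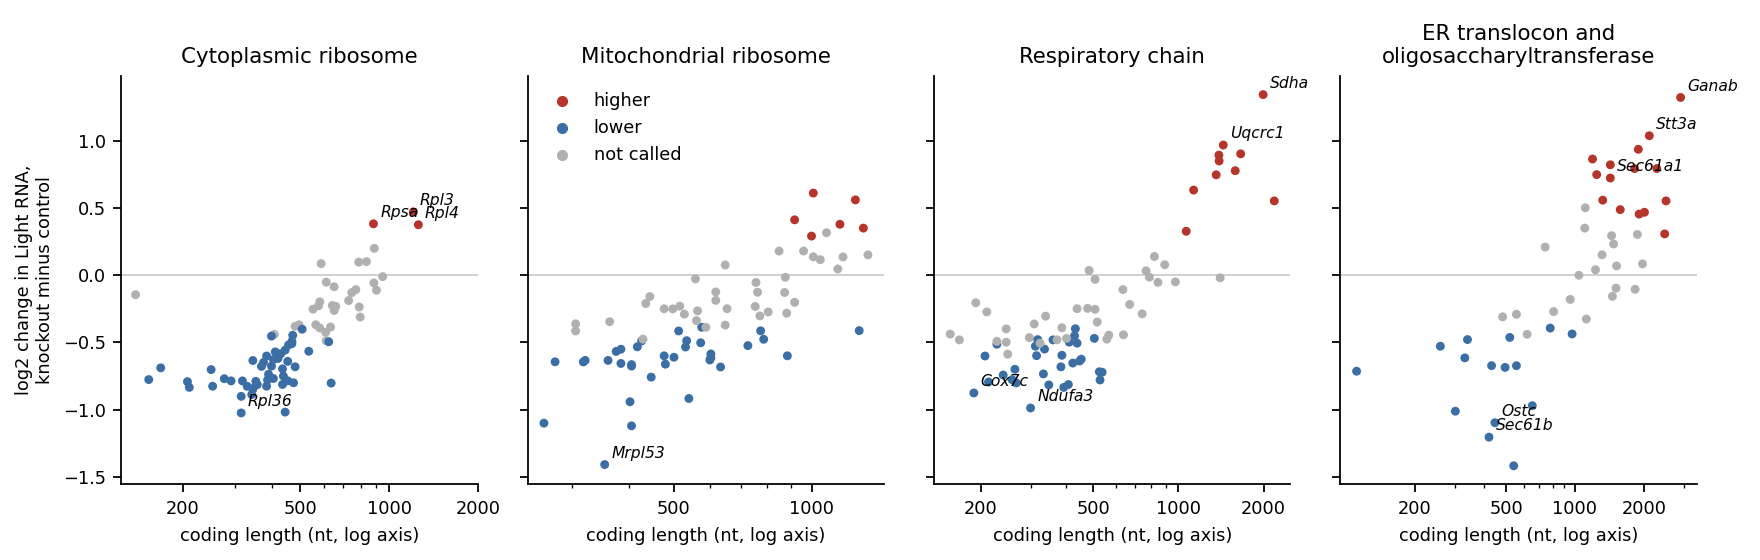
Each point is 1 subunit, with coding length on a log axis against log2 change in Light RNA (knockout minus control), coloured by call, for the cytoplasmic ribosome, the mitochondrial ribosome, the respiratory chain, and the ER translocon with the oligosaccharyltransferase. In each panel the lower calls lie mostly at the short end and the higher calls at the long end, as for Sec61b (-1.20) and Sec61a1 (0.72).

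Cytosolic chaperones and the proteasome followed. Of 35 chaperones 16 rose and 6 fell, and 11 rose and 10 fell with median-of-ratios scaling. The chaperonin subunit Cct2 averaged 335 ± 28.1 CPM in knockout Light RNA and 218 ± 11.2 CPM in control Light RNA (log2 change 0.62), and the small prefoldin subunit Pfdn5, which hands chains to the chaperonin, averaged 251 ± 27.1 CPM in knockout Light RNA and 484 ± 22.1 CPM in control Light RNA (log2 change -0.95). Hsp90ab1, an abundant Hsp90 form, had a log2 change of 0.98. Of 31 constitutive proteasome subunits 14 rose and 1 fell, with a median of 0.30, but 5 rose with median-of-ratios scaling and 9 without knockout library 1. The regulatory subunit Psmd2 had 526, 543 and 517 CPM in knockout Light RNA, against 314, 256 and 284 CPM in control Light RNA (log2 change 0.90, SE 0.14, adjusted p = 0.000107). In Total RNA no proteasome subunit was called in either direction (median -0.08), and in Heavy RNA 1 rose and 12 fell (median -0.26).

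Among the genes with the most reads in control Light RNA are several that encode small proteins, and of the 3 given here only Ptma was called. The calcium-binding protein S100a6 had 4436, 5767 and 5114 CPM in knockout Light RNA, against 7159, 7175 and 6697 CPM in control Light RNA. Its groups did not overlap, but it missed the threshold (log2 change -0.46, adjusted p = 0.0733), and with the length trend removed it stood at 0.09. Prothymosin Ptma, an acidic nuclear protein, had 1905, 2241 and 2301 CPM in knockout Light RNA, against 4288, 3511 and 4261 CPM in control Light RNA (log2 change -0.90, SE 0.19, adjusted p = 0.00127). The galectin gene Lgals1 was not called at -0.21, and its value was 0.06 under quantile normalization and 0.15 with the length trend removed. The polyamine list had 1 rise and 5 falls among 15 members, and no rise and 9 falls with median-of-ratios scaling. Sms, spermine synthase, had 38.5, 46 and 39.8 CPM in knockout Light RNA, against 96.4, 94.8 and 111 CPM in control Light RNA (log2 change -1.26, SE 0.20, adjusted p = 0.000117). Srm, spermidine synthase, averaged 360.3 ± 49.1 CPM in knockout Light RNA and 636 ± 47.6 CPM in control Light RNA (log2 change -0.82), and Smox, the spermine oxidase, was the member that rose (log2 change 0.96), a call lost without knockout library 2 or 3 or control library 2 and under both other scalings. Odc1, ornithine decarboxylase, had 404, 682 and 844 CPM in knockout Light RNA, against 750.2, 743 and 767 CPM in control Light RNA. Those groups overlapped.

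Proliferation genes moved in both directions. Of 43 DNA replication genes 16 rose (37.2%) and 9 fell (20.9%) in Light RNA, and 8 rose and 16 fell with median-of-ratios scaling. In Total RNA none rose and 14 fell. The sliding clamp gene Pcna had 366, 262 and 245 CPM in knockout Light RNA, against 154, 135 and 156 CPM in control Light RNA (log2 change 0.95, SE 0.13, adjusted p = 3.93e-05). Of 40 mitosis genes 8 rose and 7 fell (17.5%), but 1 rose with median-of-ratios scaling. Falls numbered 4 without control library 3, and 4 rose when control library 2 was left out and 5 when knockout library 2 or 3 was left out. The kinetochore subunit Spc24 had 32.2, 33.8 and 30.6 CPM in knockout Light RNA, against 88.6, 79.9 and 75.2 CPM in control Light RNA, tight groups far apart (log2 change -1.31, SE 0.14, adjusted p = 2.56e-06). Birc5, the survivin gene, had a log2 change of -1.27. Of 28 p53 targets and cell cycle inhibitors, in cells from mice with conditional p53 alleles, 8 rose (28.6%) and 5 fell (17.9%), with 3 falls without knockout library 1 and 9 with median-of-ratios scaling. Cdkn1a, the inhibitor p21, had 31.2, 27.6 and 25.2 CPM in knockout Light RNA, against 6.49, 4.27 and 5.74 CPM in control Light RNA (log2 change 2.17, SE 0.14, adjusted p = 1.28e-08), and the junction protein gene Perp had a log2 change of -1.49. Of 45 replication-dependent histones 24 rose and 7 fell, and 18 rose and 12 fell with quantile normalization and with median-of-ratios scaling alike. Removing the length trend gave 31 rises and 1 fall, and 21 of the 45 averaged at least 5 CPM. Rises and falls numbered 28 and 2 in Total RNA, and 25 and 1 in Heavy RNA. Hist1h1c, a linker histone, had 64.2, 65.7 and 56.4 CPM in knockout Light RNA, against 13, 13.7 and 12.1 CPM in control Light RNA (log2 change 2.18). Histone falls numbered 1 to 3 without knockout library 1, knockout library 3 or control library 2, and 12 without knockout library 2. Histone genes are near-identical copies and many of their messages lack a poly(A) tail, so their reads are uncertain.

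The counts of several RNA-processing lists depended on the scaling. Of 38 hnRNP and arginine-glycine-rich RNA-binding proteins, the class that holds many Prmt1 substrates, 13 rose (34.2%) and 3 fell (7.89%), with a median log2 change of 0.34. Quantile normalization gave 12 rises and 3 falls and median-of-ratios scaling gave 5 and 5, with medians of 0.26 and 0.11. Removing the length trend gave 5 rises and 7 falls, with a median of 0.03. Leaving out knockout library 1 gave 7 and 2, with 8 rises without control library 2. In Total RNA none of them rose and 6 fell, with a median of -0.29. Of 25 SR splicing factors 3 rose and 4 fell in Light RNA, and of 43 ribosome biogenesis factors 8 rose and 6 fell. With median-of-ratios scaling 1 SR factor rose and 9 fell, and 4 biogenesis factors rose and 11 fell. SR falls numbered 2 without knockout library 2 or control library 1 or 3, and biogenesis falls numbered 2 without knockout library 1. Of 21 nonsense-mediated decay factors 7 rose (33.3%) and 3 fell (14.3%), of 16 cap-sensitive growth messages 6 rose (37.5%) and 1 fell, of 21 snoRNA host transcripts 1 rose and 2 fell, and of 12 nuclear noncoding RNAs 1 rose and none fell. For the snoRNA hosts there were 4 rises without knockout library 1 and 4 falls without knockout library 3. The ribosome biogenesis median of 0.19 was -0.03 with median-of-ratios scaling.

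The labelled cell type was checked against osteoblast markers. Of 16 tested osteoblast genes 6 rose and 5 fell in Light RNA. The transcription factor gene Sp7 (osterix) had 0.65, 1.67 and 1.87 CPM in knockout Light RNA, against 4.43, 3.92 and 5.12 CPM in control Light RNA (log2 change -1.23, adjusted p = 0.00254), and Dlx5, a homeobox factor, had a log2 change of -0.89. Runx2, a factor of early osteoblasts, averaged 41.9 ± 3.82 CPM in knockout Light RNA and 54.3 ± 6.05 CPM in control Light RNA and missed the threshold (adjusted p = 0.0747). Col1a1, above, Bglap and Bglap2 were also among the 6 that rose. Alpl, alkaline phosphatase, had 23.7, 25.3 and 27.1 CPM in knockout Light RNA, against 5.33, 5.64 and 4.84 CPM in control Light RNA (log2 change 2.07, SE 0.16, adjusted p = 1.12e-07), and Sparc (osteonectin) and Spp1 (osteopontin) had log2 changes of 1.39 and 1.29. Ibsp, Sost and Mepe, markers of late osteoblasts and osteocytes, had too few reads to be tested.

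Markers of other cell types were mostly low but not level between the groups. In the macrophage, endothelial and epithelial lists 1 member each averaged at least 5 CPM. Rises made 54.5%, 44.4% and 87.5% of these lists, against 26.8% of all tested genes. Of 11 tested macrophage markers 6 rose and none fell, with a summed level of 26.2, 23.2 and 25.9 CPM in knockout Light RNA, against 9.92, 9.08 and 9.36 CPM in control Light RNA. The defining leukocyte genes Ptprc and Itgam were at or near 0, at 0 to 0.0278 CPM and 0.0197 to 0.0788 CPM in knockout Light RNA, against 0 to 0.0204 CPM and 0 to 0.0518 CPM in control Light RNA. Of 8 tested epithelial markers 7 rose and none fell, with sums of 15.8, 15 and 15.8 CPM in knockout Light RNA, against 5.33, 4.07 and 3.85 CPM in control Light RNA. Of 9 endothelial markers 4 rose, with sums of 142 to 166 CPM in knockout Light RNA, against 104 to 124 CPM in control Light RNA. Osteoclast, chondrocyte and combined muscle and adipocyte markers had 3, 2 and 1 rises among 7, 8 and 6 tested (42.9%, 25.0% and 16.7%), and the last list had 1 fall, with sums of 25.1 to 32.7 CPM in knockout Light RNA, against 35.2 to 38.1 CPM in control Light RNA. Their part in the lysosomal and immune gene changes was not tested.

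The Light change was then set against the changes in the other fractions, in 1 fit of all 18 libraries that treats them as independent. Per the protocols Total, Light and Heavy RNA were taken from the same lysates, and whether equal numbers in a genotype mark 1 lysate is not labelled. None of 17515 genes passed the test for a difference between the Light and the Total change (0.0% called, smallest adjusted p 0.0666), with 2851 at an unadjusted p below 0.05. The voom test gave 0 as well, while a filter of at least 1 CPM gave 343 such genes, and leaving out the knockout libraries numbered 1 gave 785. A block of genotype and replicate number, as for a shared lysate, gave 0. Between the Light and the Heavy change 503 genes differed (2.87%), 441 with the higher change in Light (2.52%) and 62 with the lower (0.354%). Single libraries decided much of this count. It was 87 without knockout Light library 1, 18 and 7 without control Light library 2 and 3, and 2011, 297 and 167 without knockout Heavy library 1, 2 and 3. Without control Heavy library 1, 2 or 3 it was 40, 29 or 36. It was 152 with quantile normalization and 668 with the block. Median-of-ratios scaling gave 23 higher and 26 lower in Light, and with the length trend removed there were 9 higher and 25 lower, so the excess of higher Light changes was not kept in those settings. Among 9469 genes of at least 5 CPM, 418 had the higher change in Light. They included 9 of 31 proteasome subunits, 7 of 36 lysosomal genes and 7 of 75 respiratory chain subunits. Other lists held them too, such as 6 of 38 hnRNP and related RNA-binding proteins and 5 of 23 aminoacyl-tRNA synthetases. TOP messages other than ribosomal proteins had 5 of 17, and glycolysis genes 4 of 21.

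Mfge8, a secreted protein that tags dying cells for uptake, had 408, 340.5 and 382 CPM in knockout Light RNA, against 159, 142 and 131 CPM in control Light RNA. In Heavy RNA it had 704, 594 and 523 CPM in knockout cells, against 541, 531 and 495 CPM in control cells. The groups were far apart in Light RNA and overlapped in Heavy RNA, and the difference of the log2 changes was 1.17 (adjusted p = 0.0102). Ecm1 rose in both fractions, to 799, 746 and 575 CPM in knockout Heavy RNA, against 177, 170.1 and 161 CPM in control Heavy RNA, and its Light change was larger by 1.09. Galnt11, an enzyme that starts O-glycans, had 1.34, 1.25 and 1.62 CPM in knockout Light RNA, against 17.2, 18.5 and 17 CPM in control Light RNA. In Heavy RNA it had 0.717, 0.739 and 0.899 CPM in knockout cells, against 4.95, 5.21 and 5.13 CPM in control cells, and the Light change was lower by a log2 difference of -1.18. Ccdc142 had 5.85, 7.16 and 6.71 CPM in knockout Light RNA, against 14.4, 14 and 12.4 CPM in control Light RNA, while its Heavy values overlapped between 3.01 and 3.96 CPM (difference -1.03). Its RefSeq span slightly overlaps that of Mrpl53, so reads of the pair may be mixed. Mrpl53, which averaged 129.7 CPM in control Light RNA, fell there too. The very long dynein heavy chain gene Dync1h1 rose in both fractions, less in Light (log2 change 0.85) than in Heavy RNA (1.65), with an adjusted p of 0.0386 for the difference. The difference of Ccdc142 passed the test in all 22 alternative settings, that of Mfge8 in all but the one without control Light library 3, and that of Galnt11 in all but voom. Ecm1 kept it in 15 and Dync1h1 in 9, and both lost it with median-of-ratios scaling.

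**Figure D5:**
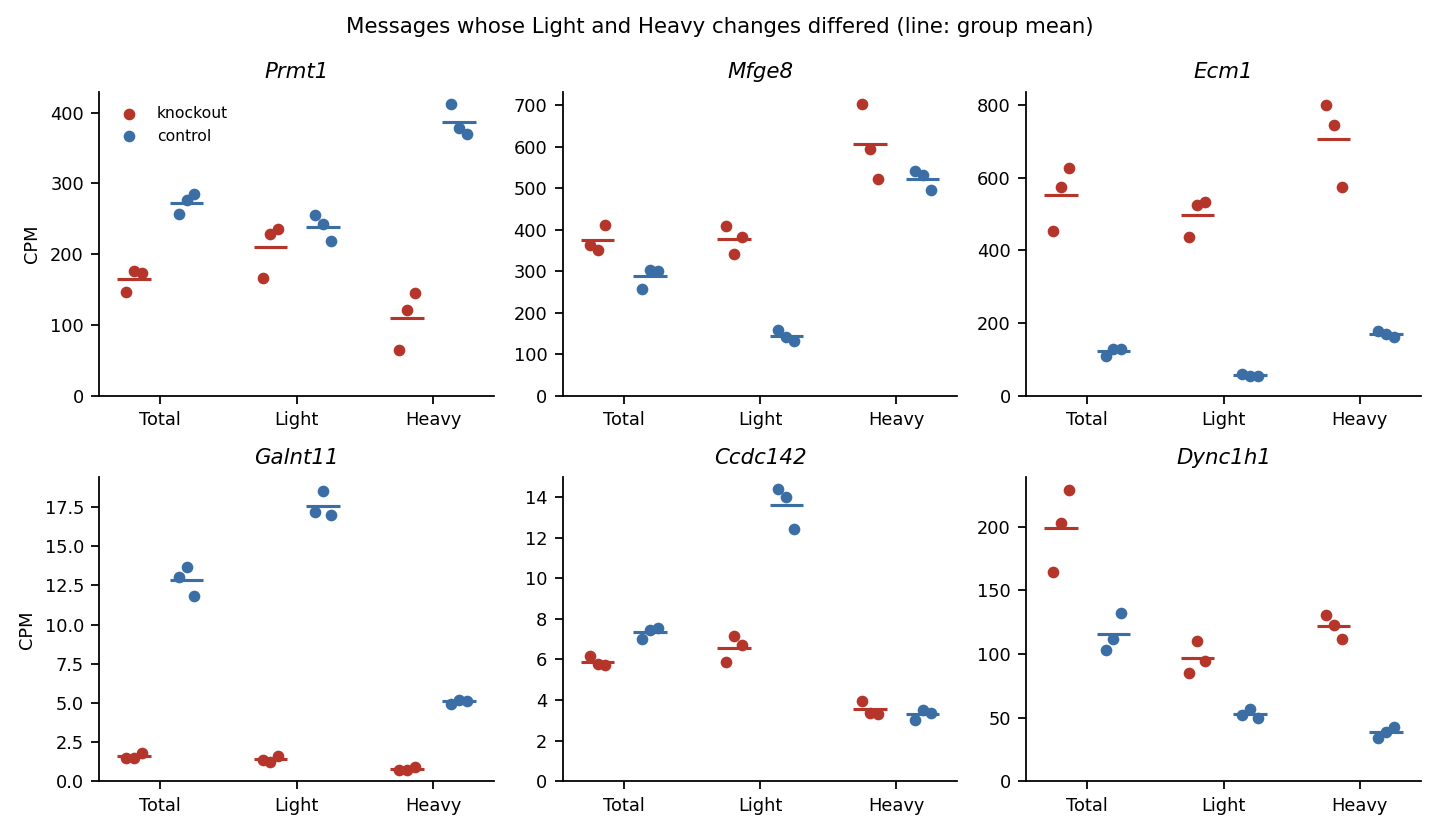
CPM of 6 genes in Total, Light and Heavy RNA, with knockout at left and control at right in each fraction, 3 libraries each and a line at the mean. Mfge8 and Ecm1 are raised more in Light than in Heavy RNA on the log2 scale, Galnt11 and Ccdc142 are lowered more in Light RNA, Dync1h1 is raised less in Light than in Heavy RNA on that scale, and Prmt1 has overlapping groups in Light RNA.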

How the data were processed

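The authors deposited 1 table of 19862 genes and 18 libraries in log2(CPM + 1), and the submitters' processing notes name STAR, mm10 and edgeR, without versions. Undoing the log2 and the scaling to 1000000 reads gave whole reads for 100.0% of values within 0.1, and so the depths. In this work limma (3.58.1, R 4.3.3) was run with a mean-variance trend and robust variances on the deposited log2 values of all 18 libraries as 6 group means, for 17515 genes above 0 in at least 3 libraries. A call is a Benjamini-Hochberg adjusted p below 0.05 over all tested genes. Alternatives were other scalings, filters and pseudocounts, voom, a replicate block, removal of the coding-length trend and leaving out libraries. The members and the 40 gene lists and 7 marker lists were chosen with earlier results of these data known, so list counts are descriptions. Genes named are the 15 highest and lowest changes, the 5 lowest p-values of each list, the methyltransferases, the 10 genes with the most reads and the clearest Light and Heavy differences. Not every gene of that rule is named. Other genes, and the sequences shown, were chosen after their values were seen. Tapbp overlaps Zbtb22, Prmt7 overlaps Smpd3, Carm1 overlaps Yipf2, Pfdn5 overlaps Myg1 and Rpl15 overlaps Nkiras1, so reads of these pairs may be mixed too. GENCODE gave coding lengths, as the longest coding region of each gene, and RefSeq gave promoter windows (12376 tested genes had a window). On simulated data in the Light design, 81% of genes changed by a log2 of 1 were recovered, and 35% at 0.585. In it 100 of 17515 genes were changed at each size, with independent noise and no outlying library. Recovery in the real libraries, where 39.5% of genes were called, can differ. Apart from ranking genes by reads in control Light RNA, levels between genes were not compared.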

Additional observations from a re-analysis of the deposited data

Results flagged for a closer look

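Between Light and Heavy RNA the change differed for 503 genes, tested as the Light change minus the Heavy change (log2, knockout minus control in each) with limma. The Light change was the higher for Prmt1 itself, by 1.68 on the log2 scale, where the knockout had 166, 229 and 235 CPM in Light RNA, against 255, 243 and 218 CPM in control Light RNA, and 64.4, 121 and 145 CPM in Heavy RNA, against 412, 378 and 370.1 CPM in control Heavy RNA. Prmt1 was lower in the knockout in Heavy RNA with no overlap and overlapped in Light RNA.

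Among the other genes named above, the difference was 1.17 for Mfge8, 1.09 for Ecm1, 1.04 for Ctsl, 1.01 for Psap and 0.99 for Ctsd. Of the longer subunits it was 0.89 for Atp5b, 0.82 for Uqcrc1, 0.77 for Sec61a1, 0.73 for Cct2 and 0.54 for Tomm34. In the translation machinery it was 0.76 for Rpl3, 0.71 for Rpl4, 0.80 for Rpsa and 0.65 for Eif3f. It was 0.85 for Pcna and 0.61 for Igfbp7, which fell less in Light than in Heavy RNA. These differences were unequally firm. Of the 21 named, those of Ctsl and Ccdc142 passed the test in all 22 alternative settings and 19 lost it in at least 1. With median-of-ratios scaling 16 lost it, with quantile normalization 8 and with the length trend removed 17, and 18 lost it when some single library was left out. None lost it with the replicate block. Tomm34 (adjusted p = 0.0415), Cct2 (0.0365) and Igfbp7 (0.0365) lay nearest the threshold on the higher side and kept their call in 8, 9 and 7 settings. The Light change was the lower for Galnt11 (-1.18), Ccdc142 (-1.03), Psmb10 (-0.81) and Dync1h1 (-0.80). For the immunoproteasome subunit Psmb10 the knockout had 58, 48.3 and 52.4 CPM in Light RNA, against 50.1, 59.5 and 46.6 CPM in control Light RNA, and 55.4, 40.7 and 43 CPM in Heavy RNA, against 25.7, 24.6 and 25.7 CPM in control Heavy RNA.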

How the results depend on the processing

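Of 96 called genes named above, 89 kept their call and direction in every alternative setting and 7 lost it in at least 1. Asns, Eif3f, Rpl3, Rpl4, Rpsa and Smox lost it with the length trend removed. Fth1 and Rpsa lost it in a fit of the Light libraries alone, and Eif3f and Rpsa with the replicate block in that fit. Eef1g, Bglap and Bglap2, also named as higher, were not part of this count. With quantile normalization 3064 genes were higher and 3415 lower in Light RNA, with median-of-ratios scaling 3716 were lower, and with the coding-length trend removed 4756 were lower. The last setting also took the gap between long and short coding regions to 0.04 by its construction, and turned Rpl15 to 0.24, Ptprc to -0.42 and Itgam to -0.36. Ptprc and Itgam lie near 0 CPM, so their negative values there come from the subtraction. Leaving out 1 library gave 5642 to 6534 calls in Light RNA. For the Light change minus the Total change the counts were 785 without knockout libraries numbered 1 and 343 at 1 CPM or more. They were 548 without variance trend and robust variances, 17 with quantile normalization, and 0 to 2 when 1 library was left out. For Light minus Heavy the counts were 1872 without knockout libraries numbered 1, 785 without variance trend and robust variances, and 335 with voom. Quantile normalization gave 152, and median-of-ratios scaling gave 49 (23 higher in Light and 26 lower). With the length trend removed there were 34 (9 and 25), and 7 to 2011 when 1 library was left out. The cause was not tested.

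The replicate numbers did not pair the Light libraries, since deviations of same-numbered libraries correlated at -0.045, 0.108 and -0.08. A fit with the replicate number as a block gave 4204 higher and 2135 lower genes in Light RNA alone, against 4578 and 2237 without it, and a block of genotype and number over the fractions gave 668 genes for Light minus Heavy and 0 for Light minus Total.

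The spread between libraries limits what these tests can call. In simulation with these spreads, 54% of log2 differences of 1 between the Light and Heavy changes were recovered and 49% between Light and Total, so a short list there says little about equal change.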
